A study of Rattus norvegicus with 8 samples.

Results

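The nuclei described here were those of the rat nodose ganglion in which Nxph1 reached 2 or more raw transcript counts (unique molecular identifiers, UMIs), in which at least 2 of the 3 genes Slit2, Kcnk2 and Arhgap6 were detected, and in which Pcdh15 was at 0 or 1 UMI. Of 36741 nuclei, 417 met this rule (1.13%), and they are called members below. The nodose ganglia came from 18 male and 18 female Long Evans rats, an outbred strain, that were 8 weeks old and had received no experimental treatment or genetic change. Every pool combined same-side ganglia of 6 rats, and each labelled sex and side had 3 pools, written ML1 to ML3 (male, left), MR1 to MR3 (male, right), FL1 to FL3 (female, left) and FR1 to FR3 (female, right). With 18 rats of each sex, left and right pools of a sex would draw on the same animals, so that pools are not fully independent and a pool is a mean over 6 rats. Nuclei of all pools were spread over 8 sublibraries of single-nucleus RNA sequencing, and the sublibraries held between 40 and 60 members each.

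The vagus nerve carries its visceral sensory fibres from cell bodies in the nodose ganglion, which report stretch, chemical content and hormones from the gut, heart and airways to the brainstem. These neurons fall into molecular types that differ in channels, receptors and cell-surface molecules. Nxph1 encodes neurexophilin 1, a secreted glycoprotein that acts at synapses. Slit2 is a secreted guidance ligand of the Robo receptors, Kcnk2 is the two-pore potassium channel TREK-1 that opens with membrane stretch and warmth, Arhgap6 is a GTPase-activating protein, and Rnf220 is a ubiquitin ligase. Pcdh15, which the rule kept low, is a protocadherin known from the tip links of inner-ear hair cells.

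Promoter windows of the markers were read from RefSeq (build GRCr8, while the submitters' processing notes name mRatBN7.2), 250 bases before each annotated start. Of the 5 markers 4 had an entry, with 5 windows in all because Kcnk2 had 2 starts. The 3 windows shown belong to Nxph1, on which the selection rests, to Arhgap6, the scarcest partner, and to Rnf220, the marker that the rule did not use. They are written 5′ to 3′ on the gene's own strand, and capitals mark the motif GGGCGG read on either strand.
Nxph1, chr4:37964075-37964324, plus strand: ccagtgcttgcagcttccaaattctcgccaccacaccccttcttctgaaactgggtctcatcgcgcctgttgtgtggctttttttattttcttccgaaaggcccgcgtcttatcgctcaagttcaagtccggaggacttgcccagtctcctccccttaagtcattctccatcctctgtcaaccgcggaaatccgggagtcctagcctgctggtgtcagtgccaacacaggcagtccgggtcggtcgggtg
Arhgap6, chrX:28791731-28791980, minus strand: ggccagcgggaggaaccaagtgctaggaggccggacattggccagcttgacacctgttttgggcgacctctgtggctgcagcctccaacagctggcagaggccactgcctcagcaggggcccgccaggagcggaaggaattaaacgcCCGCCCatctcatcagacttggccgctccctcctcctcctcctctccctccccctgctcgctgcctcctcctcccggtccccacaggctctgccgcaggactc
Rnf220, chr5:135993451-135993700, minus strand: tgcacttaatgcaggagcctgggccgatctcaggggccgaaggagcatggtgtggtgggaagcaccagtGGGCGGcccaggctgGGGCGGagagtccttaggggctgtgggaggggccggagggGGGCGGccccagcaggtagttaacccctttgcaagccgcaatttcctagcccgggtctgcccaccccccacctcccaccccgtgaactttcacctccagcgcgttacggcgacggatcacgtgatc

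Rnf220 held 3 copies of GGGCGG and Arhgap6 held 1, while the windows of Nxph1 and both starts of Kcnk2 (chr13:103438643-103438892 and chr13:103494687-103494936, minus strand) held none. The motif was present in 30.5% of 33469 rat windows of the same length. None of the 5 windows held TATAAA, found in 12.9% of all windows, or TAATTA, found in 4.86%. The GC content was 66.4% in the Arhgap6 and Rnf220 windows, 55.6% in Nxph1, and 45.6% and 42.0% at the 2 starts of Kcnk2, beside a median of 51.2% over all windows. CG dinucleotides numbered 15 in Rnf220, 14 in Nxph1, 11 in Arhgap6 and 9 and 5 in Kcnk2, beside a median of 5.

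Over the whole data set the 12 pools held 1738 to 4849 nuclei and 7140286 to 19456287 UMIs. Members numbered 21 (FL2) to 62 (FR3) per pool, and their summed UMIs ranged from 108087 to 464201 per pool, which limits the precision of every level given below. A member had a median of 4513 UMIs (range 1007 to 41017), the 28165 other neurons had 2889, and the 8199 nuclei of non-neuronal clusters had 2002. Members were thus deeper nuclei than the rest. Y-linked transcripts went against the sex label in 2 pools: they reached 2.88 CPM (UMIs scaled to a common total per library) in ML1 and 88.6 CPM in FL1, while the other male-labelled pools lay at 84.4 to 91.3 CPM and the other female-labelled pools at 2.73 to 3.95 CPM. Labels were kept as deposited, the words male-labelled and female-labelled are used for that reason, and results by sex are given with and without these pools. Barcode triples that occurred in more than 1 sublibrary covered 3808 nuclei (10.4%), among them 58 members, and no triple was shared by 2 members.

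The values that the rule used are given as a description. Members held 1554 UMIs of Nxph1 (median 3 per nucleus, highest 22), 2141 of Slit2 (median 4, highest 23), 691 of Kcnk2 (median 1, highest 7) and 246 of Arhgap6 (median 0, highest 10). Slit2 and Kcnk2 without Arhgap6 was the most frequent combination, with 267 members (64.0%). All 3 partners were detected in 92 (22.1%), Slit2 with Arhgap6 in 51 (12.2%) and Kcnk2 with Arhgap6 in 7 (1.68%). Most members were thus read by Nxph1, Slit2 and Kcnk2 together.

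Just inside the rule lay 165 members with exactly 2 UMIs of Nxph1, and 304 nuclei that met the other conditions had 1 UMI. Of the members at 2 UMIs, 60.6% fell in 1 cluster (number 10, described below), of those at 3 or more 57.1%, and of the 304 nuclei just outside 49.3%. With 2 partners detected there were 325 members, and 297 further nuclei had 1 partner. Pcdh15 was at 0 in 337 members and at 1 UMI in 80. A further 142 nuclei met the rest of the rule with 2 or more UMIs of Pcdh15, and 34.8% of the 23 that had exactly 2 UMIs were in cluster 10, against 17.6% of the 119 with more.

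These genes were read less often outside the members. A UMI of Kcnk2 was found in 87.8% of members, in 8.45% of other neurons and in 7.01% of non-neuronal nuclei. Slit2 was found in 98.3%, 23.1% and 25.7%, and Nxph1 in 100%, 5.67% and 5.48%. For these 3 genes the shares of other neurons as a whole lay close to those of non-neuronal nuclei, at median depths of 2889 and 2002 UMIs, so no expression is read from them, although the other neurons include 2 clusters, described below, in which the genes were abundant. Arhgap6 differed: it was found in 36.0% of members, 3.53% of other neurons and 14.5% of non-neuronal nuclei. Rnf220, which played no part in the rule, had a UMI in 87.5% of members, 18.1% of other neurons and 35.5% of non-neuronal nuclei, and in 48.1% of the nuclei of the Schwann cell cluster, so other nuclei besides members held it too.

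Levels below are CPM of UMIs summed over the members of a pool, with the mean ± SD over 12 pools. In such sums fewer expressing nuclei and less RNA per nucleus cannot be told apart. Nxph1 reached 612 ± 122 CPM in members and 32.7 ± 8.23 CPM in other neurons. Its level was 466, 740 and 629 CPM in ML1 to ML3, 691, 559 and 692 CPM in MR1 to MR3, 576, 517 and 478 CPM in FL1 to FL3, and 762, 790 and 442 CPM in FR1 to FR3. The lowest member pool was FR3 and the highest FR2, so the right female-labelled pools spanned the whole range. Slit2 stood at 795 ± 110 CPM against 146 ± 15.5 CPM, from 629 CPM in ML3 to 1014 CPM in FR2. Kcnk2 stood at 266 ± 61.1 CPM against 30.5 ± 4.02 CPM, from 171 CPM in MR3 to 382 CPM in FR2. Arhgap6 was the scarcest and the most variable of the selection genes, at 87.3 ± 30.1 CPM against 11.6 ± 3.24 CPM, with 33.4 CPM in FR1 and 125 CPM in FL1. With all pools summed, members held 91.5 CPM of Arhgap6 and the non-neuronal clusters 82.9 CPM. Its level thus set members apart from other neurons but hardly from non-neuronal nuclei.

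Rnf220 was the marker left free by the rule. It stood at 582 ± 124 CPM in members, with a low of 325 CPM (MR3), a median of 570 CPM and a high of 816 CPM (FR2), against 86.2 ± 12.6 CPM in other neurons, whose highest pool reached 114 CPM. On the log2 scale with 5 CPM added the ratio was 2.69 ± 0.39 (SD over 12 pools), and member and other-neuron pools did not overlap. No test is attached to this or any other difference between members and other neurons, because genes that go with the selection genes had to differ.

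**Figure D1:**
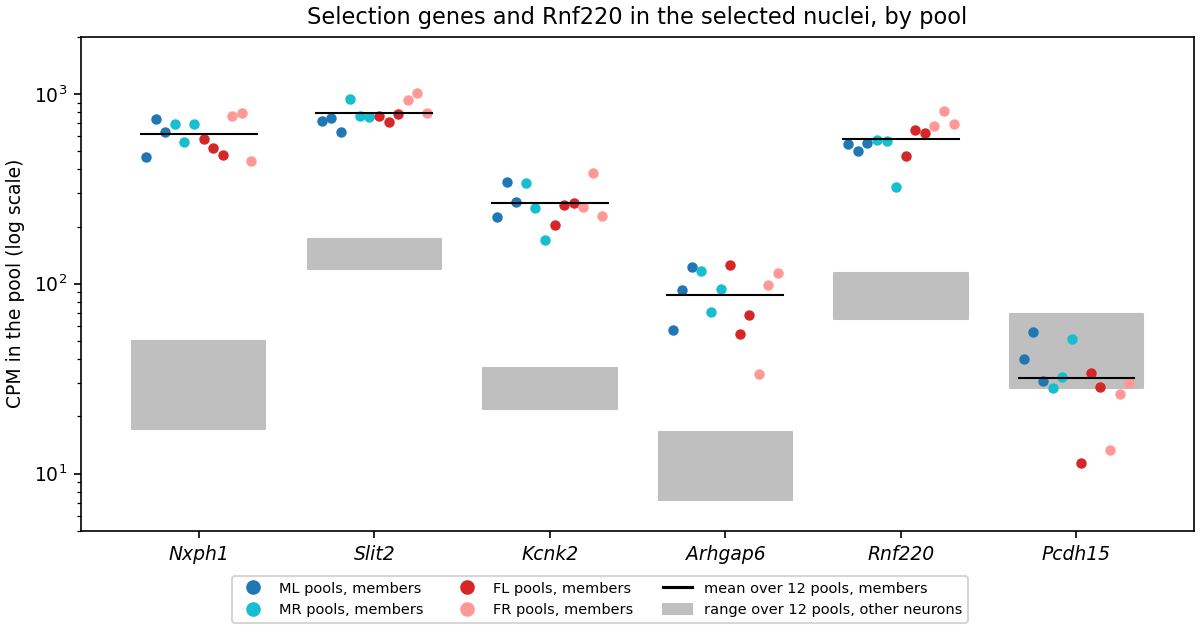
Each point is the level of a gene in the members of 1 pool, in CPM on a log axis, coloured by labelled sex and side; the black line is the mean over 12 pools and the grey band the range of the other neurons over the same pools. Members lie above the grey band in every pool for Nxph1, Slit2, Kcnk2, Arhgap6 and Rnf220, Arhgap6 spreads from 33.4 to 125 CPM, and Pcdh15, which the rule kept low, overlaps the band.

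Members did not form 1 homogeneous group. All nuclei were clustered on variable genes into 28 clusters. Of the members, 244 (58.5%) lay in cluster 10, where they made up 17.7% of 1378 nuclei. The leading genes of cluster 10 were Nxph1, Rnf220, Ptprt, Slit2 and Kcnk2. A further 94 members (22.5%) lay in cluster 19, a group of 467 deep nuclei (median 6549 UMIs) led by Th, Nxph1, Kcnk2, Lypd1 and Pcp4. The satellite glia cluster held 27 members, the cluster led by Pcdh15 (number 15, 762 nuclei) held 18, and the mural and Schwann cell clusters held 8 and 5. In all 40 members lay outside the neuron clusters, and these had a median of 8813 UMIs.

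The 1134 nuclei of cluster 10 that did not meet the rule had a median of 2240.5 UMIs, below the 3480 UMIs of the members in it. Over all its nuclei cluster 10 held 501 CPM of Nxph1 and 289 CPM of Kcnk2, against 19.7 and 21.7 CPM in other neurons outside both clusters. The rule therefore took the deeper fraction of a larger cluster with the same leading genes.

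The label of a neuron was checked on 12 general neuron markers. Their summed level was 8068 to 14124 CPM in the member pools and 10047 to 12357 CPM in other neurons, with 8620 CPM in the non-neuronal clusters, so neuronal transcripts were read at high levels in every kind of nucleus and the sum separates the classes little. Snap25, a synaptic release protein, stood at 1791 ± 186 CPM in members and 1680 CPM in other neurons. Of the nodose neuron markers, the vesicular glutamate transporter Slc17a6 stood at 213 ± 32.3 CPM against 258 CPM, the ATP receptor P2rx2 at 91.3 ± 26.0 CPM against 96.4 CPM, and the transcription factor Tbx3 at 22.2 ± 13.9 CPM against 77.6 CPM. Hand2 was at 0. Of the jugular markers, the transcription factor Prdm12 stood at 3.59 against 10.3 CPM, and the neuropeptide genes Calca and Tac1 at 5.61 against 21.7 CPM and 19.7 against 27.7 CPM, while Wnt1 was at 0. Members thus carried Slc17a6 and P2rx2 near the level of other neurons, and Tbx3 and Calca at lower mean levels. The nodose list summed to 263 to 384 CPM in member pools, 370 to 517 CPM in other neurons and 260 CPM in the non-neuronal clusters. In members of cluster 10 it was 294 CPM. This sum too separates members little from non-neuronal nuclei.

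Glial transcripts accompanied a large part of the members. Over 14 satellite glia and Schwann cell markers (Cadm2 not counted, since neurons hold it too), 248 members (59.5%) had 2 or more UMIs, and their median depth was 6566.5 UMIs. The 169 members with fewer had 3106 UMIs, and 90.5% of them lay in cluster 10. The satellite glia markers without Cadm2 summed to 488 to 1222 CPM in the member pools (median 691) and 146 to 262 CPM in other neurons (median 188). By cluster, the sum was 67.7 CPM in members of cluster 10, 1147 CPM in members of cluster 19, 1044 CPM in members elsewhere and 1410 CPM in the non-neuronal clusters. Without Cadm2, satellite glia transcripts in members of cluster 10 were thus below those of other neurons, while the remaining members approached the glial level. With Cadm2 counted the order was the opposite, at 1282 CPM in members of cluster 10 against 619 to 873 CPM in pools of other neurons. No doublet caller was run, and the part of glial RNA in the levels of these members was not tested.

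The sympathetic and chromaffin-type list was also higher in members, at 218 to 488 CPM against 111 to 156 CPM. The difference came from Th, the rate-limiting enzyme of catecholamine synthesis, at 58.7 ± 22.6 CPM against 7.30 CPM, and from the granins Chgb, at 167 CPM (106 to 287 CPM over pools) against 92.2 CPM, and Chga, at 71.1 ± 24.5 against 42.7 CPM. The noradrenaline transporter Slc6a2, Hand1 and Pnmt were at 0 in members, and dopamine β-hydroxylase, Dbh, stood at 0.91 CPM. Th was 37.5 CPM in members of cluster 10 and 102 CPM in those of cluster 19. Of other cell types, fibroblast markers summed to 107 to 518 CPM in members and 82.8 to 210 CPM in other neurons, endothelial markers to 6.69 to 83.3 CPM and 22.5 to 31.3 CPM, and skeletal muscle markers to at most 1297 CPM and 1135 CPM (medians 181 and 209 CPM).

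**Figure D2:**
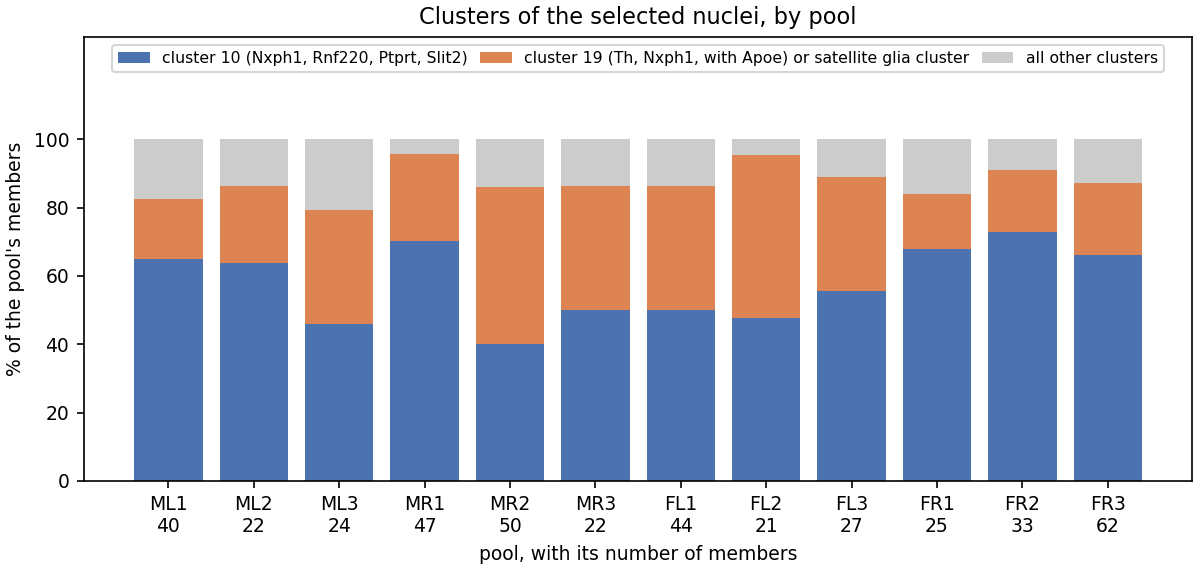
Bars give, for each pool, the percentage of its members in cluster 10 (blue), in cluster 19 or the satellite glia cluster (orange) and in all other clusters (grey); the number under each pool is its count of members. The orange share runs from 16.0% in FR1 to 47.6% in FL2. It is 16.0% to 21.0% in the 3 FR pools, and ML1 at 17.5% lies within that range.

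Many genes outside the rule also stood higher or lower in members. Among 9542 genes at 10 CPM or more in members or other neurons, 327 (3.43%) were at least 2-fold higher in members with every one of 12 pools in that direction, and 197 (2.06%) were at least 2-fold lower in the same way. Since the genes follow from the selection, these counts are a description. Eya4, a phosphatase and transcriptional coactivator, had the highest ratio after Nxph1 and Kcnk2, at 202 ± 73.1 CPM against 24.3 ± 3.59 CPM (log2 ratio 2.82 ± 0.61). Cd226, an adhesion receptor best known from T cells and natural killer cells, stood at 44.3 ± 26.1 CPM against 2.40 ± 0.675 CPM (2.74 ± 0.73), and its member pools ranged from 17.2 to 112 CPM. Lypd1, a membrane-anchored modulator of nicotinic receptors, stood at 152 ± 43.0 CPM against 20.1 CPM (2.65 ± 0.54).

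Cntnap5a, of the contactin-associated family, reached 1339 ± 332 CPM against 294 ± 23.4 CPM. Ntng1, the membrane-anchored netrin G1, reached 802 ± 115 CPM against 190 ± 20.4 CPM, and Ptprt, a receptor tyrosine phosphatase, 793 ± 151 CPM against 169 ± 32.4 CPM. In all 3 the lowest member pool (898, 649 and 529 CPM) lay above the highest pool of other neurons (323, 221 and 231 CPM). Each was higher still in the members of cluster 10, at 2014 CPM for Cntnap5a, 1270 CPM for Ntng1 and 1362 CPM for Ptprt.

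Apoe and Tyrp1 behaved otherwise. Apoe, a lipid carrier made by satellite glia, stood at 591 ± 185 CPM in members against 138 CPM, and Tyrp1, an enzyme known from melanin synthesis that led the satellite glia cluster here, at 201 ± 87.4 CPM against 45.8 CPM. In members of cluster 10 they were at 36.4 and 11.5 CPM, below other neurons, and in members of cluster 19 at 928 and 309 CPM. Both were thus high only in members outside cluster 10, and low in those within it.

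**Figure D3:**
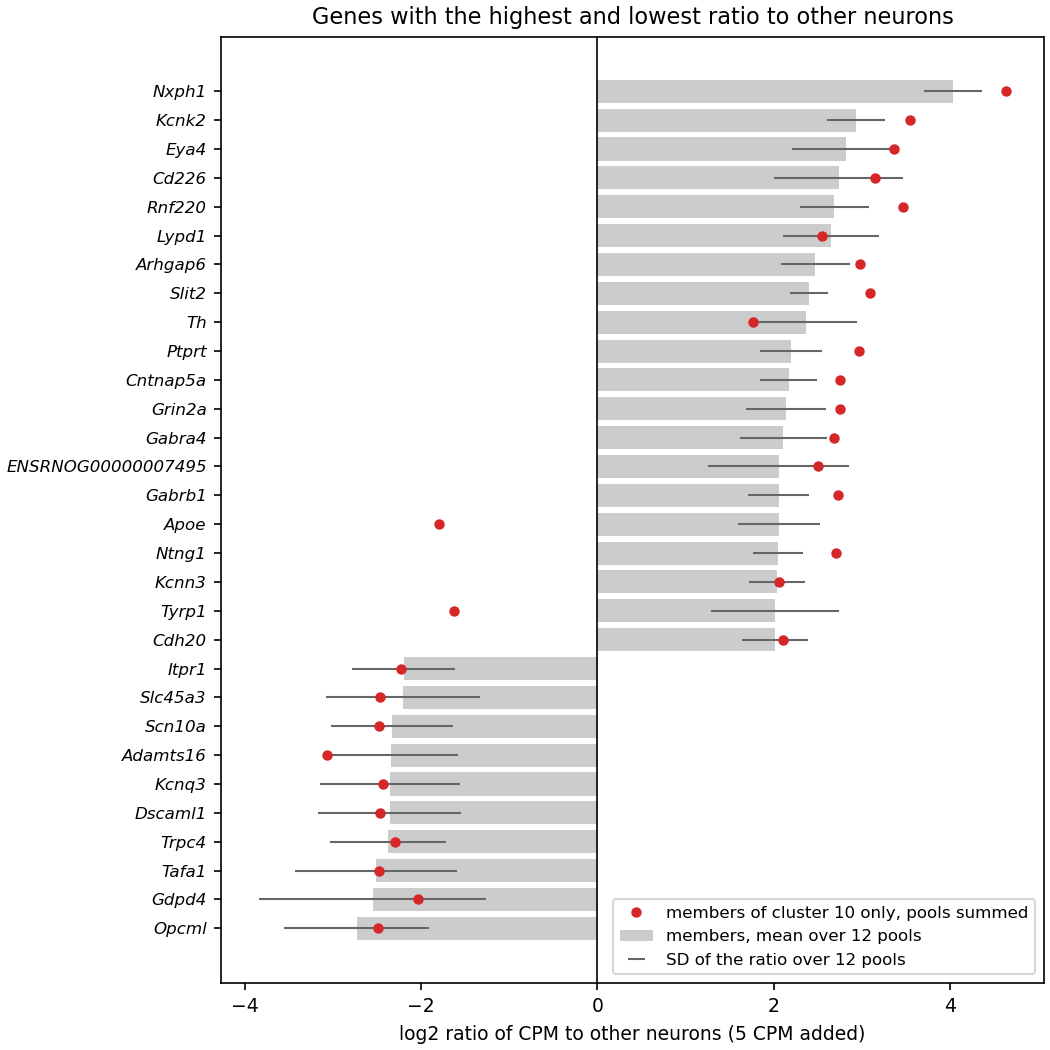
Horizontal bars give the log2 ratio of members to other neurons (5 CPM added, mean levels over 12 pools) for the genes with the highest and the lowest ratio, with whiskers for the SD over pools; red points give the ratio for members of cluster 10 alone. The red points lie beyond the bars for Nxph1 and Ptprt, and on the opposite side of 0 for Apoe (−1.80) and Tyrp1 (−1.62).

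Ion channel genes lay in both directions. Over all 9542 genes, 3.43% were at least 2-fold higher in every pool and 2.06% were lower in the same way. Here and below, lists are described gene by gene, and no result about a family is read from the counts. Of 9 two-pore potassium channels at 10 CPM or more, 2 were at least 2-fold higher in every pool, namely Kcnk2 of the rule and Kcnk9 (TASK-3), which stood at 83.4 ± 30.1 CPM against 19.7 ± 2.86 CPM. Kcnk9 was also among the 10 leading genes of cluster 1, another neuron cluster (3854 nuclei). Of the same family 3 were lower: Kcnk3 at 14.7 against 36.2 CPM, Kcnk13 at 5.82 against 18.3 CPM and Kcnk18 at 0.473 against 10.5 CPM. Kcnk10 (TREK-2) and Kcnk4 (TRAAK), the close relatives of Kcnk2, stood at 105 ± 21.8 against 182 CPM and 10.6 ± 9.16 against 25.2 CPM, lower in all 12 pools though less than 2-fold on that scale. Among these 3 related channels Kcnk2 alone was higher in members, as the rule asked.

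Among 40 voltage-gated, calcium-activated and HCN channel genes, 2 were higher and 6 lower by the same count. The shares over all genes were 3.43% and 2.06%. Both higher ones were small-conductance calcium-activated potassium channels, Kcnn3 at 195 ± 39.9 CPM against 43.8 ± 4.80 CPM and Kcnn2 at 211 ± 50.9 against 103 CPM. Kcnq3, a subunit of the M-current, was among the lowest of all genes, at 216 ± 112 CPM against 1122 ± 163 CPM. Of 23 sodium and calcium channel genes 3 were higher and 3 lower. Among the higher ones, Scn1a (Nav1.1) stood at 297 ± 69.5 against 132 CPM and the calcium channel subunit Cacnb2 at 227 ± 42.1 against 99.5 CPM. Scn10a (Nav1.8), the sodium channel typical of unmyelinated sensory neurons, stood at 233 ± 103 CPM against 1189 ± 79.1 CPM (log2 ratio −2.33 ± 0.69), and Scn11a (Nav1.9) at 64.3 ± 48.5 against 279 CPM. The member level of Scn10a lay below the 398 CPM read in non-neuronal clusters.

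Sensory transduction genes also lay in both directions, beside 3.43% higher and 2.06% lower over all genes. Of 14 mechanosensation genes 1 was higher by that count, Piezo2, the stretch-gated cation channel of baroreceptors and airway stretch afferents, at 717 ± 120 CPM (578 to 916 CPM over pools) against 281 ± 74.4 CPM (183 to 434 CPM). Tmc3 stood at 623 ± 57.9 CPM against 331 CPM, higher in 12 of 12 pools but under 2-fold. No TRP channel of 12 was higher, and 4 were lower: Trpa1, the receptor of irritants, at 73.6 ± 43.2 against 351 CPM, Trpc4 at 45.4 ± 21.3 against 255 CPM, Trpm3 at 894 ± 247 against 2522 CPM and Trpc7 at 6.46 against 26.7 CPM. Trpv1, the capsaicin receptor, stood at 40.1 ± 15.3 against 84.2 CPM, a log2 ratio of −0.98.

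Of 13 receptor genes for gut hormones and transmitters 1 was higher, 6 were lower and the others met neither criterion. Beside this stand 3.43% higher and 2.06% lower over all genes. The higher gene was Glp1r, the receptor of glucagon-like peptide 1, at 93.4 ± 36.8 CPM (37.0 to 146 CPM) against 29.2 ± 6.19 CPM (16.5 to 35.3 CPM). Its lowest member pool lay only just above the highest pool of other neurons, and members of cluster 10 held 139 CPM. The serotonin-gated channel subunits Htr3a and Htr3b were at 30.9 ± 18.0 against 120 CPM and 48.3 ± 28.2 against 226 CPM, the opioid receptor Oprm1 at 306 ± 39.3 against 674 CPM, and the secretin receptor Sctr at 3.24 against 17.8 CPM. Among 24 purinergic, cholinergic and inflammatory receptor genes 6 were lower, among them Chrna3 at 15.0 against 83.1 CPM and Chrm2 at 16.2 against 76.2 CPM. The 1 higher gene, Lpar1, stood at 183 CPM in members but at 34.4 CPM in those of cluster 10, below the 82.4 CPM of other neurons.

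Guidance and synaptic adhesion genes, the families of Slit2 and Nxph1, held 7 higher and 7 lower genes among 32, and 1 higher and 1 lower among 17. Among all genes 3.43% were higher and 2.06% lower. The higher counts include Slit2 and Nxph1 themselves, which the rule selected. Slit3 was higher beside Slit2, at 328 ± 58.1 CPM against 97.9 CPM, while Slit1 was at 155 ± 55.2 against 232 CPM. The receptors Robo1 and Robo2 were at 177 ± 44.5 against 242 CPM and 748 ± 80.7 against 804 CPM. The semaphorin receptor Nrp2 stood at 365 ± 67.9 against 117 CPM and Nrp1 at 27.2 ± 11.9 against 82.3 CPM, and the netrin receptor Unc5d at 522 ± 91.7 against 219 CPM and Unc5c at 401 ± 55.5 against 943 CPM, so each of these pairs split in opposite directions. In the neurexin list the 1 higher gene was Nxph1 of the rule. The latrophilin Adgrl2 was lower, at 51.2 ± 26.5 against 151 CPM. Clstn2, a calsyntenin, stood at 841 ± 128 against 444 CPM, higher in all 12 pools.

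Among the remaining lists, Tafa2, a secreted chemokine-like peptide, stood at 979 ± 201 CPM against 240 CPM, while its relatives Tafa1 and Tafa4 were at 4.68 against 50.2 CPM and 42.9 ± 25.1 against 182 CPM. Gfra2, the neurturin receptor, was at 178 ± 42.4 against 71.3 CPM and Ret at 178 ± 54.4 against 363 CPM. Of 32 transcription factors 4 were higher, with Pbx3 at 463 ± 73.8 against 187 CPM as the most abundant after Rora, and 2 were lower, Esr1 (the oestrogen receptor, 16.4 ± 7.07 against 46.7 CPM) and Tbx3. Of 31 glutamate and GABA genes 4 were higher, among them the NMDA receptor subunit Grin2a at 135 ± 51.1 against 26.7 CPM and the GABA-A receptor subunit Gabrb1 at 60.9 ± 14.1 against 10.8 CPM. Of 27 regulators of small GTPases 3 were higher, Arhgap6 of the rule, the exchange factor Vav3 at 554 ± 135 against 142 CPM and Dock1. Tafa2 was also among the 10 leading genes of cluster 15, and Grin2a among those of cluster 17 (655 nuclei). Over 37 leading genes of other vagal neuron types, 16 were lower and 4 higher, with a median log2 ratio of −1.13 beside 0.06 over all 9542 genes. Genes of this list lead clusters counted among the other neurons, such as Tafa4 in cluster 2 and Cysltr2 in cluster 7. Lower values in members were thus favoured in advance, and no result is read from this median. For every list here, the shares over all genes were 3.43% higher and 2.06% lower.

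Cluster 15, the Pcdh15 cluster, also held the selection genes. Over all its nuclei it held 434 CPM of Nxph1, 956 CPM of Slit2, 548 CPM of Rnf220 and 185 CPM of Kcnk2, against 501, 1221, 938 and 289 CPM in cluster 10. Both clusters also held Piezo2 (1191 and 913 CPM) and Cntnap5a (1539 and 1769 CPM), and both had Scn10a well under other neurons (174 and 229 CPM). The gap was wide in a small set: Gabrb1 was at 92.5 CPM in cluster 10 and 4.46 CPM in cluster 15, Kcnk9 at 110 and 9.55 CPM, Glp1r at 114 and 12.4 CPM, Cd226 at 43.4 and 2.55 CPM, Grin2a at 164 and 23.9 CPM, and Ptprt at 1311 and 267 CPM. These are values of clusters formed on the same genes and were not tested.

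The share of neurons that met the rule did not differ past the threshold between the sides. Neurons of left pools were deeper, with a mean pool median of 3263 UMIs against 2794 (exact permutation p = 0.06, adjusted p = 0.32). The rule counts UMIs, so unthinned shares are not compared at equal depth. Before any correction for depth the share was 1.33% ± 0.214 (SD, n = 6 pools) on the left and 1.31% ± 0.416 on the right, a difference of −0.0130 percentage points (exact permutation p = 0.95, two-sided). To compare nuclei at 1 depth, they were thinned to 2000 UMIs, which left out 20.2% to 45.7% of neurons per pool and left 4.55 to 18.7 members per pool. The thinned share was 0.494% ± 0.0907 on the left (0.355% to 0.619%) and 0.624% ± 0.169 on the right (0.377% to 0.902%), and the pools overlapped. The difference of 0.130 points was within the spread of the pools (exact permutation p = 0.15, adjusted p = 0.48 over 16 comparisons of shares, depth and glial content, smallest possible p 0.005). Without MR3, the lowest right pool, the difference was 0.179 points (exact permutation p = 0.01), so this single pool moved it past the threshold.

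By labelled sex the thinned share was 0.585% ± 0.185 where pools were male-labelled and 0.533% ± 0.106 where they were female-labelled, a difference of −0.0519 points (exact permutation p = 0.55, adjusted p = 0.8). Without ML1 and FL1 it was −0.0743 points (exact permutation p = 0.45). Unthinned shares were 1.29% ± 0.409 and 1.35% ± 0.223 (exact permutation p = 0.775), and the sign of the difference turned with thinning. The neurons of female-labelled pools were deeper, with a median of 3411 UMIs against 2646 (exact permutation p = 0.015, adjusted p = 0.24), or 3298 against 2527 without ML1 and FL1 (unadjusted exact permutation p = 0.0333). Its part in any difference below was not tested. Nuclei of cluster 10 took 4.42% ± 0.563 of the neurons in left pools and 5.11% ± 0.749 in right pools (exact permutation p = 0.115).

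**Figure D4:**
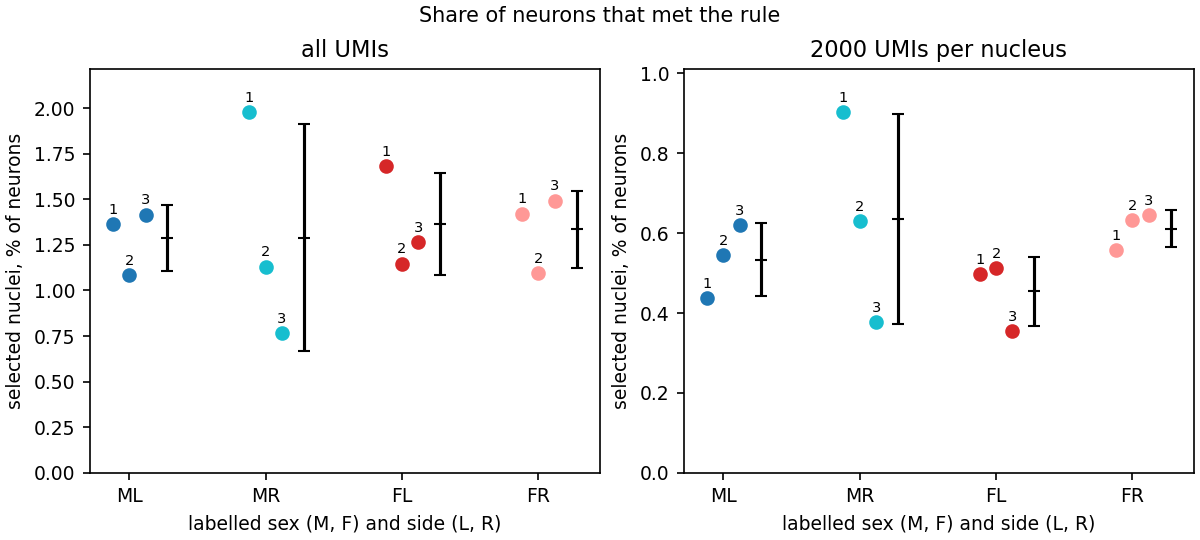
Points are pools, numbered within each group, and bars with caps give the mean ± SD of 3 pools, of the percentage of neurons that met the rule, by labelled sex and side, before thinning and after thinning each nucleus to 2000 UMIs. The groups overlap in both panels, and after thinning the pools run from 0.355% (FL3) to 0.902% (MR1).

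Gene expression within members was then compared over pools with edgeR's quasi-likelihood F test on summed UMIs, which could test 4207 genes; levels in this and the following paragraphs are CPM scaled by TMM factors. Between the sides 0 genes passed an adjusted p of 0.05 (0.0%), while 156 had an unadjusted p under 0.05. DESeq2 also called 0, with 88 at that level. All 5 markers were tested and none passed: the side difference was 0.20 ± 0.14 for Nxph1 (log2, right minus left, ± SE), 0.25 ± 0.11 for Slit2 and 0.11 ± 0.17 for Kcnk2. The smallest p belonged to Schip1, a membrane-skeleton protein of the axon, at 1016, 1149 and 1259 CPM in ML1 to ML3 and 1116, 840 and 1085 CPM in FL1 to FL3, against 711, 823 and 741 CPM in MR1 to MR3 and 832, 727 and 738 CPM in FR1 to FR3. All left pools lay above all right pools, with a difference of −0.50 ± 0.11 (edgeR adjusted p = 0.336). Grm8, a metabotropic glutamate receptor, was 0.85 ± 0.20 higher on the right (edgeR adjusted p = 0.336) and Rgs6, a regulator of G-protein signalling, 0.49 ± 0.13 (edgeR adjusted p = 0.453). These 3 did not pass the test over all genes, and the sides did not overlap in 2 of 4207 genes (0.0475%).

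When the side difference of members was set against that of the other neurons in the same pools, 0 of 4207 genes passed (0.0%; 223 at an unadjusted p under 0.05), while DESeq2 called 1, Schip1. In edgeR Schip1 was again first, at −0.51 ± 0.11 (adjusted p = 0.173), with a side difference of 0.01 in other neurons. Leaving out 1 pool at a time gave 0 to 2 called genes.

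By labelled sex 0 of 4207 genes passed in edgeR (0.0%; 184 had an unadjusted p under 0.05). DESeq2 likewise called 0, with 100 at that level. Trpa1 had the smallest p (−1.10 ± 0.26, female minus male, edgeR adjusted p = 0.814). Its male-labelled pools lay at 83.3 to 205 CPM and its female-labelled pools at 26.8 to 64.6 CPM, without overlap. The labelled sexes did not overlap in 9 of 4207 genes (0.214%). Without ML1 and FL1, the pools whose Y-linked transcripts go against their labels, 3 of 4191 genes passed. These were Ddx3 and ENSRNOG00000060617, lower in female-labelled pools with log2 differences of −5.53 and −6.37, and ENSRNOG00000065796, higher by 6.79. Trpa1 was not among them. Since ML1 and FL1 were left out for their Y-linked transcripts, genes that go with or against those transcripts had to separate the remaining pools. This test therefore cannot tell a sex difference of members from the choice of pools for these 3 genes, and none is read from it. Over all nuclei of cluster 10 in place of the members 12 of 6212 genes passed, and there the Trpa1 difference had the opposite sign, 0.87.

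The sex difference of members departed from that of other neurons in 1 gene of 4207 (0.0238%). Sgcz, a sarcoglycan of the dystrophin complex, had a class difference of 0.73 ± 0.14 (edgeR adjusted p = 0.0402). In members its difference between the labelled sexes was 0.14 ± 0.15, with male-labelled pools at 438 to 1008 CPM and female-labelled pools at 633 to 1010 CPM, and in other neurons it was −0.58 ± 0.20 (edgeR adjusted p = 0.176). Within neither class did the labelled sexes differ past the threshold for this gene. The size of the class difference stayed at 0.63 to 0.81 when 1 pool at a time was left out and at 0.70 without ML1 and FL1, but the call did not hold: 0 genes were called without ML1 and FL1 together and when any 1 of ML1, ML2, ML3, MR2, MR3, FL1, FL3, FR1 and FR2 was left out.

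The side difference depended on the labelled sex for 6 of 4207 genes (0.143%; 419 had an unadjusted p under 0.05), all with a negative interaction (the female-labelled right minus left difference less the male-labelled one), and DESeq2 called 1, Tyrp1. Tyrp1 was at 234, 169 and 170 CPM in ML1 to ML3, 298, 412 and 346 CPM in MR1 to MR3, 215, 254 and 335 CPM in FL1 to FL3 and 170, 62.6 and 139 CPM in FR1 to FR3. It was higher on the right among male-labelled pools and lower on the right among female-labelled ones, with no overlap within either sex (interaction −1.85 ± 0.34, edgeR adjusted p = 0.0274). Lgr5, a receptor of R-spondins, had 325, 358 and 205 CPM in ML, 290, 460 and 524 CPM in MR, 381, 523 and 455 CPM in FL and 234, 211 and 209 CPM in FR pools (−1.49 ± 0.30, edgeR adjusted p = 0.0298). Its ML and MR pools overlapped, so the pattern lay mainly in the low FR pools. The metalloprotease Adamts17 (−1.75 ± 0.36), the adhesion molecule Igsf11 (−1.50 ± 0.31), the phosphodiesterase Pde7b (−1.47 ± 0.32) and the lipid desaturase Scd2 (−1.10 ± 0.23) followed, with edgeR adjusted p from 0.0298 to 0.0371.

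Some lists of non-neuronal markers also had negative interaction values, as these 6 genes did. The satellite glia markers without Cadm2 summed to 575 to 897 CPM in ML, 670 to 1222 CPM in MR, 712 to 959 CPM in FL and 488 to 619 CPM in FR pools. These sums were not scaled by TMM factors, so they are not on the scale of the gene levels above. Of the satellite glia list 4 genes were tested, 3 had an unadjusted p under 0.05 and the median interaction was −1.09, beside 0.01 over all tested genes. Of the myelinating Schwann cell list 3 of 3 tested genes had an unadjusted p under 0.05 (median −1.12). In the fibroblast list 2 of 3 did (median −1.22), and in the non-myelinating Schwann cell list 1 of 6 (median −0.32). The skeletal muscle list had a median of 0.77, the opposite sign, and 0 of 2 genes under 0.05. Over all 4207 genes the share under 0.05 was 9.96%. Apoe had −1.02 ± 0.29 (edgeR adjusted p = 0.143). Among members of cluster 10 alone 0 of 1770 testable genes were called (44 at an unadjusted p under 0.05), and of the 6 genes only Scd2 could be tested there, at −0.42 (edgeR adjusted p = 0.998). The number of calls also rested on single pools: it was 0 without any 1 of MR2, MR3, FL2, FL3 and FR3, 1 without ML1, 2 without ML1 and FL1, 3 without FL1 or FR1, 11 without ML3, 13 without ML2 and 19 without MR1. The size of the Tyrp1 interaction varied less, from −2.08 to −1.63 when 1 pool at a time was left out (edgeR adjusted p from 0.0116 to 0.101), and −2.26 without ML1 and FL1 (edgeR adjusted p = 0.0109). The part of RNA from non-neuronal cells in these differences was not tested further.

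**Figure D5:**
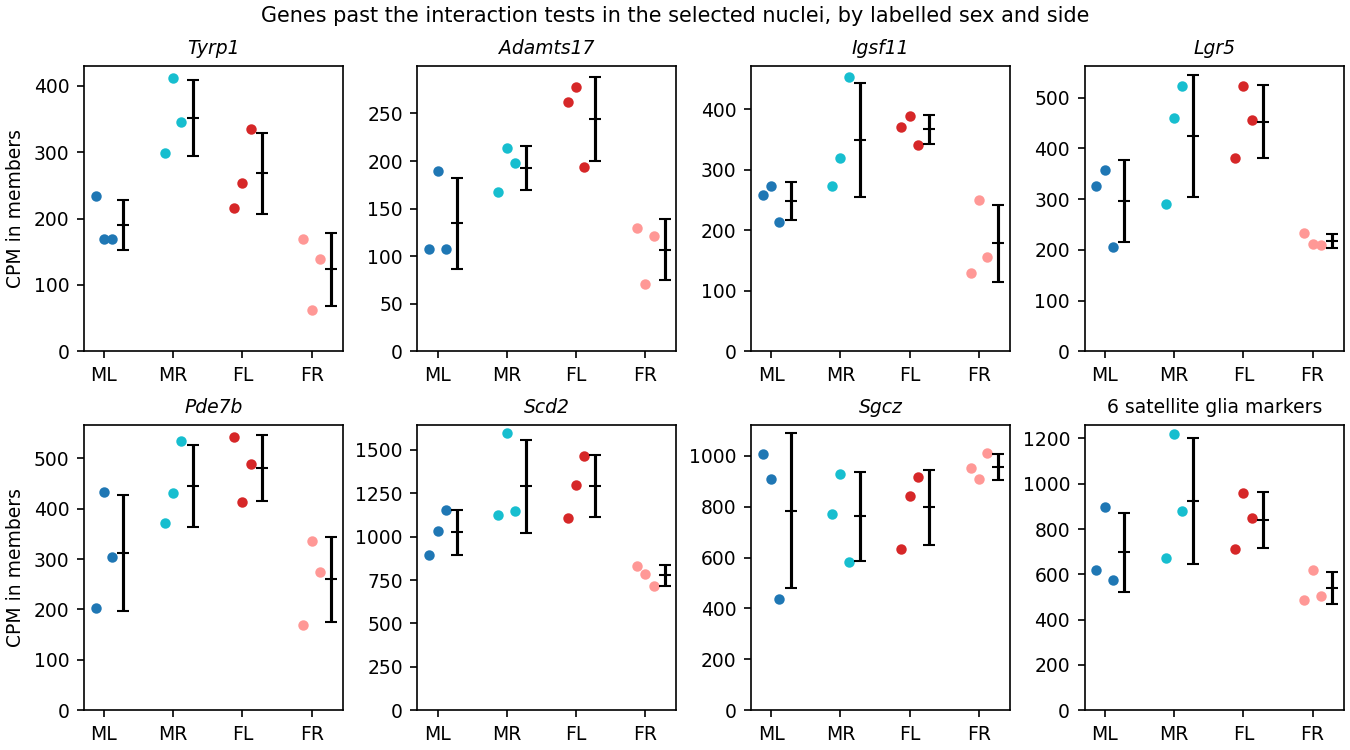
Each panel shows a gene past one of the interaction tests, or the sum of 6 satellite glia markers, in CPM in the members of each pool, by labelled sex and side, with the mean ± SD of 3 pools beside the points. Gene levels are scaled by TMM factors, and the marker sum is not. In the panels of Tyrp1 and of the satellite glia markers the FR pools are low, at 62.6 to 170 CPM and 488 to 619 CPM. In the satellite glia panel the ML pools, at 575 to 897 CPM, overlap the FR pools.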

How the data were processed

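Single-nucleus RNA sequencing of 12 pools was deposited by the authors as raw UMI counts per gene and nucleus, with a gene list and a nucleus table that names each nucleus's pool. Per the labels' protocols, nuclei were barcoded with Evercode v2 kits, divided into 8 sublibraries and sequenced on a NextSeq 2000. The submitters' processing notes name mRatBN7.2, R 4.3.2 and Seurat 4.1.3, while for aligner, annotation and barcode filter nothing is given in the sources used here. The counts held 30560 genes and 139965360 UMIs.

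Pool names gave labelled sex and side. All nuclei were clustered (scanpy 1.11.5: 3000 variable genes, 30 components, 20 neighbours, Leiden resolution 1.0). The planned definition of neurons could not be used as written, since most nuclei are neurons, so after seeing the data all clusters without 3 markers of 1 non-neuronal class at 2-fold or more and 1 of these among their leading 10 genes were taken as neurons (24 of 28 clusters, 28542 nuclei). No doublet caller was run. UMIs of members were summed per pool and tested with edgeR 4.0.16 (TMM, filterByExpr, quasi-likelihood F test, Benjamini-Hochberg adjustment), with DESeq2 1.42.0 as an alternative, and R 4.3.3 ran both. In the comparison of members with other neurons the pool was a block, and the filter on low counts was applied to the members. Shares were compared by exact two-sided permutation of pool labels within the other factor (400 relabellings), with nuclei thinned to 2000 UMIs in 20 draws. The scripts were tested on simulated counts. The interaction fit recovered 22.9% of simulated 2-fold changes and 82.7% of 4-fold changes. The other fits recovered 91.6% to 94.7% and 100%. A lack of interaction calls therefore says little about 2-fold changes. P-values measure the spread between pools.

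The members and lists were chosen with earlier results of these data known. Genes were named by a rule: the markers, the 20 highest and 10 lowest ratios to other neurons, the top 3 of each list in both directions, called genes, and the 3 smallest p where fewer than 3 were called. Further members of the lists are named for comparison. Same-numbered left and right pools were not stated to share rats, so they were not paired. The correlation of their deviations ran from −0.0299 to 0.0778 in members. In other neurons it ran from −0.183 to 0.394, the highest for ML2 with MR2. With so few members per pool these correlations cannot settle whether rats were shared. Some genes of the lists are not reported here. Alternatives are in the closing section.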

Additional observations from a re-analysis of the deposited data

Results flagged for a closer look

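In each gene that the tests or the rule named, pools of 1 side or 1 labelled sex were searched for a single pool far from its group (96 groups, of which chance flags about 1 in 20), and 7 were found. Gene levels are CPM in members after TMM scaling. Kcnk2 was at 453.52 in FR2 while the next female-labelled pool had 314.72, and Rnf220 was at 375.4 in MR3 while the next male-labelled pool had 569.37. Trpa1 was at 205.43 in ML3 against 84.35 in the next left pool, so its difference between the labelled sexes is partly carried by this pool. The transcript ENSRNOG00000005176 was also highest in ML3, at 678.81, against 381.68 in the next left pool and 415.42 in the next male-labelled pool, and among female-labelled pools FL3 stood apart at 381.68 against 269.53. Scd2 was at 1599.19 in MR2 against 1152.19 in the next male-labelled pool. MR2 also had the highest satellite glia sum of all pools, 1222 CPM without TMM scaling.

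A second group of results differed between groups by a test of the difference itself. The side difference of members depended on labelled sex for Tyrp1 (interaction −1.85), Adamts17 (−1.75), Igsf11 (−1.50), Lgr5 (−1.49), Pde7b (−1.47) and Scd2 (−1.10, all log2 values). For Sgcz the sex difference of members departed from that of other neurons by 0.73.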

How the results depend on the processing

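The difference in member share between the sides (0.130 points) turned to −0.0130 without thinning, −0.00354 with all 3 partner genes required, and −0.0660, −0.0580, −0.0464 and −0.0125 in sublibraries 3, 4, 6 and 7 alone, while it passed the threshold with Nxph1 at 3 or more UMIs (0.139, exact permutation p = 0.025) and in sublibraries 1 (0.530) and 2 (0.418) alone. That by labelled sex (−0.0519) turned to 0.0606 without thinning, 0.102 with thinning to 4000 UMIs, 0.00247 with all 3 partners, 0.112 for the cluster that holds most members, 0.328 in sublibrary 2 alone, and 0.407 in sublibrary 3 alone, past the threshold in the opposite direction (exact permutation p = 0.035). Leaving out 1 pool at a time gave 0.0740 to 0.179 for the sides and −0.0935 to 0.0115 for the sexes, the last without MR1. The cause of these turns was not tested.

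Called genes numbered, without a filter on low counts, 5 by side, 5 by sex, 19 for the interaction, and 2 each for the side and the sex difference against other neurons. Without ML1 and FL1 the calls numbered 3 by sex, 2 for the interaction and 0 for the sex difference against other neurons, of 4191 genes tested. The 3 by sex are not read as a sex difference, since ML1 and FL1 were left out for their Y-linked transcripts. DESeq2 called 1 for the interaction and 1 for the side difference against other neurons. Members of the main cluster alone gave 0 for the interaction and 0 for the sex difference against other neurons, with 1770 genes tested. All nuclei of that cluster gave 12 of 6212 genes by sex, or 13 of 6315 without ML1 and FL1. In them the side difference of Rgs6 was −0.0621 and the sex differences of Trpa1 and ENSRNOG00000005176 were 0.87 and 0.23, the last 0.0105 in its members alone. Without ML1 and FL1 as well, these were −0.157, 0.94 and 0.32. Leaving out 1 pool at a time gave 0 to 0 calls by side, 0 to 3 by sex, 0 to 19 for the interaction, 0 to 2 for the side and 0 to 1 for the sex difference against other neurons.

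With pool number as a replicate block the side difference in share stayed 0.130 (exact permutation p = 0.25) and 0 genes were called by side. No label states that same-numbered pools share rats, and in members 2 of 6 left pools correlated best with their own number. Leaving out members with 2 or more glial UMIs left 22 nuclei, since Cadm2 is on that list, and was not run. A version that does not count Cadm2, the stricter neuron clusters, both main clusters together, the members of the main cluster alone and all its nuclei without ML1 and FL1 were chosen after seeing the data. Depth limits all of this: 21 to 62 members per pool, and 4207 testable genes of 30560.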

Other observations

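Some further genes, chosen after their values were seen, differed in level between members of clusters 10 and 19, which were formed on the same genes, so no test is given. Nefh, the heavy neurofilament subunit of large myelinated neurons, was at 268 CPM in members of cluster 10 and 1168 CPM in those of cluster 19. Nefm was at 762 and 2469 CPM, Nefl at 442 and 1324 CPM, and Stmn2, a growth-associated tubulin regulator, at 706 and 1224 CPM. Syt1, a calcium sensor of transmitter release, ran the other way at 1297 and 779 CPM. Satellite glia markers, at 67.7 and 1147 CPM, moved with this contrast, and their part in it was not tested.

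Over all 1378 nuclei of cluster 10, members or not, 12 of 6212 genes differed between the labelled sexes in edgeR's quasi-likelihood test. Ngfr (the low-affinity neurotrophin receptor, log2 difference 0.70 ± 0.14, female minus male, adjusted p = 0.0152), Gnas (0.74 ± 0.15, adjusted p = 0.0257) and the mitochondrial transcripts Mt-nd5 (0.76 ± 0.17) and Mt-cyb (0.86 ± 0.20, both adjusted p = 0.0474) were higher in female-labelled pools. Without ML1 and FL1 13 of 6315 genes passed, with Ngfr at 0.71 (adjusted p = 0.0418) and Gnas at 0.80 (adjusted p = 0.0418) among them, and Mt-nd5 and Mt-cyb did not. Those 13 also held Ddx3 (−4.76), Kdm5d (−5.11), ENSRNOG00000060617 (−6.40) and ENSRNOG00000065796 (5.56). Since ML1 and FL1 were left out for their Y-linked transcripts, no sex difference is read from these large values. With all pools the 1 lower gene was ENSRNOG00000060617, which also fell in members without ML1 and FL1. Neurons of female-labelled pools were deeper (median 3411 against 2646 UMIs), and the part of depth in these differences was not tested.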
